A study of Mus musculus with 8 samples.

Results

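The gene-trap line of Gtf2i was compared with the Hprt knockout, the other group of the series whose genotype label carries an Hprt mutation. The comparison used 4 of the 8 Affymetrix arrays of the series, namely the 2 trap arrays and the 2 Hprt knockout arrays, chosen by their titles. The trap cells carry the genotype label HPRT -/-:GTF2I +/- and were derived by gene trapping in the AB2.2 embryonic stem (ES) cell line. The Hprt knockout cells carry the label HPRT -/- with no Gtf2i mutation, and their parental line is not named. The remaining groups were a wild-type group (line not named) and a gene-targeted derivative of the R1 line with the genotype Δexon2/+, 2 arrays each, and they are used below only to place the levels. All lines were maintained on a monolayer of feeder cells in Knockout DMEM with Knockout Serum Replacement, leukaemia inhibitory factor (LIF), non-essential amino acids and beta-mercaptoethanol, and total RNA was taken without a stated separation from the feeders. Each group stands for a single line, so the trap insertion and all other differences between the lines cannot be told apart. No label ties the arrays of a group, called biological replicates, to separate cultures; the p-values cover only how far these arrays spread, which may be technical.

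Gtf2i encodes TFII-I, a signal-responsive transcription factor whose human gene belongs to the Williams-Beuren deletion, and Hprt encodes the enzyme that salvages hypoxanthine and guanine. Mouse ES cells in LIF hold a naive pluripotent state built on Pou5f1, Sox2 and Nanog, with LIF acting through Stat3 on factors such as Klf4 and Tfcp2l1. They can move towards a primed, epiblast-like state marked by Otx2, Pou3f1 and the de novo DNA methyltransferases. Feeder layers are commonly embryonic fibroblasts, which make fibrillar collagens, proteoglycans, growth factors and chemokines. In such bulk RNA, fewer cells of a type and less RNA per cell cannot be told apart.

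Levels are log2 intensities, and a difference is the trap mean minus the Hprt knockout mean with its standard error (SE) from limma, n = 2 arrays per group. A gene was called when its limma p-value, adjusted by Benjamini-Hochberg over 13819 tested genes, was under 0.05. Of these genes 3675 (26.6%) were called higher and 5774 (41.8%) lower in the trap line, 68.4% in either direction. A difference of at least 2-fold with a call was seen for 1420 genes (10.3%) upward and 684 (4.95%) downward. The large differences were nearly all upward, with 640 genes at least 4-fold higher and 66 at least 4-fold lower, and 135 at least 16-fold higher against 0 lower. The median over all tested genes was -0.13, and list medians are given relative to it. Counts of members called in a list are to be read beside the shares of all tested genes, 26.6% higher and 41.8% lower. Cyclic loess scaling moved that median by 0.15 and the split of calls to 4774 higher and 4154 lower (53.5% higher, against 38.9% with the deposited scaling). In 307 of the genes at least 2-fold higher, the Hprt knockout lay below the filter level (log2 5.35 on average) on both arrays, and in 112 of the genes at least 2-fold lower the trap line did, so the size of those folds depends on the array background.

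**Figure D1:**
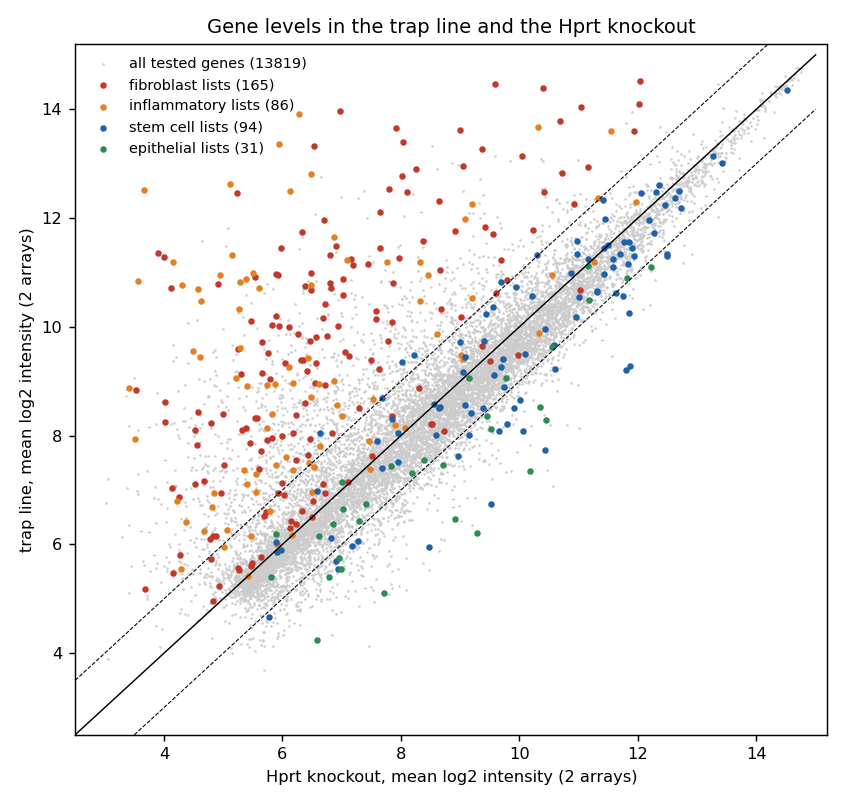
Mean log2 intensity of each tested gene in the Hprt knockout (x axis) and the trap line (y axis), 2 arrays each, with the solid line at equality and dashed lines at 2-fold. Points of the fibroblast and inflammatory lists lie mostly above the upper dashed line (135 of 165 and 68 of 86 genes called at least 2-fold higher). Stem cell genes lie along the diagonal and on both sides of it, with 6 of 94 called at least 2-fold higher and 23 at least 2-fold lower.

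The arrays were examined first for the targeted genes and for cell type. Gtf2i, on chromosome 5, read 10.92 and 10.89 in the Hprt knockout and 10.11 and 10.07 in the trap line. The trap line was therefore lower by log2 -0.82 ± 0.05 (adjusted p = 9.87e-06 by limma), with no overlap of arrays, yet it lay beside wild-type at 10.10 and 10.14. A second probe set of Gtf2i gave -1.19, and the other 2, both dim, gave 0.17 and -0.06 with no call. Hprt, on chromosome X, was at 10.05 and 10.02 in the knockout and 10.76 and 10.72 in the trap line, below wild-type at 12.09 and 12.08. Where the probes lie relative to the trap insertion or the Hprt lesion was not analysed here. Arrays of the same group correlated at 0.998 (trap) and 0.997 (Hprt knockout) over the tested genes, and the Hprt knockout correlated with the trap line at 0.888 to 0.889, against 0.978 to 0.979 between trap and wild-type.

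Stem cell markers were high on all arrays and fibroblast markers stood apart in the Hprt knockout alone. The mean of 14 fibroblast markers was 6.93 to 6.96 in the Hprt knockout, against 11.37 to 11.39 in the trap line, 11.47 to 11.50 in wild-type and 11.08 to 11.09 in the exon 2 mutant. Lum lay under the filter level on both Hprt knockout arrays, whereas all 14 were above it in the other groups. The mean of 14 ES cell markers was 11.97 on the lower Hprt knockout array and 11.85 to 11.87 on the trap arrays. Of 7 macrophage markers, Ptprc and Tyrobp were below the filter level in every group, and Adgre1 in the Hprt knockout alone. Their mean was 5.69 to 5.81 in the Hprt knockout and 6.35 to 6.39 in the trap line, over all 7 markers. Of 5 endothelial markers Cdh5, Tie1 and Emcn were below the filter level in every group, and Tek and Robo4 above it on all arrays. Of 4 skeletal muscle markers Myod1 and Myog were below it in every group, and Actc1 on both arrays of the trap line alone. The part of the fibroblast signal in any difference described below was not tested.

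Fibroblast-type genes formed the largest upward block. Of 165 tested members of 9 lists, 146 were called higher in the trap line and 5 lower, beside 26.6% and 41.8% of all tested genes, and their median lay 2.85 log2 units above that of all tested genes. For 30 of them the Hprt knockout was below the filter level. Averaged over these members, the level was 6.86 to 6.87 in the Hprt knockout, 9.56 to 9.58 in the trap line, 9.94 to 9.97 in wild-type and 9.26 to 9.27 in the exon 2 mutant. The trap line thus lay between wild-type and the exon 2 mutant, and the Hprt knockout below all 3.

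**Figure D2:**
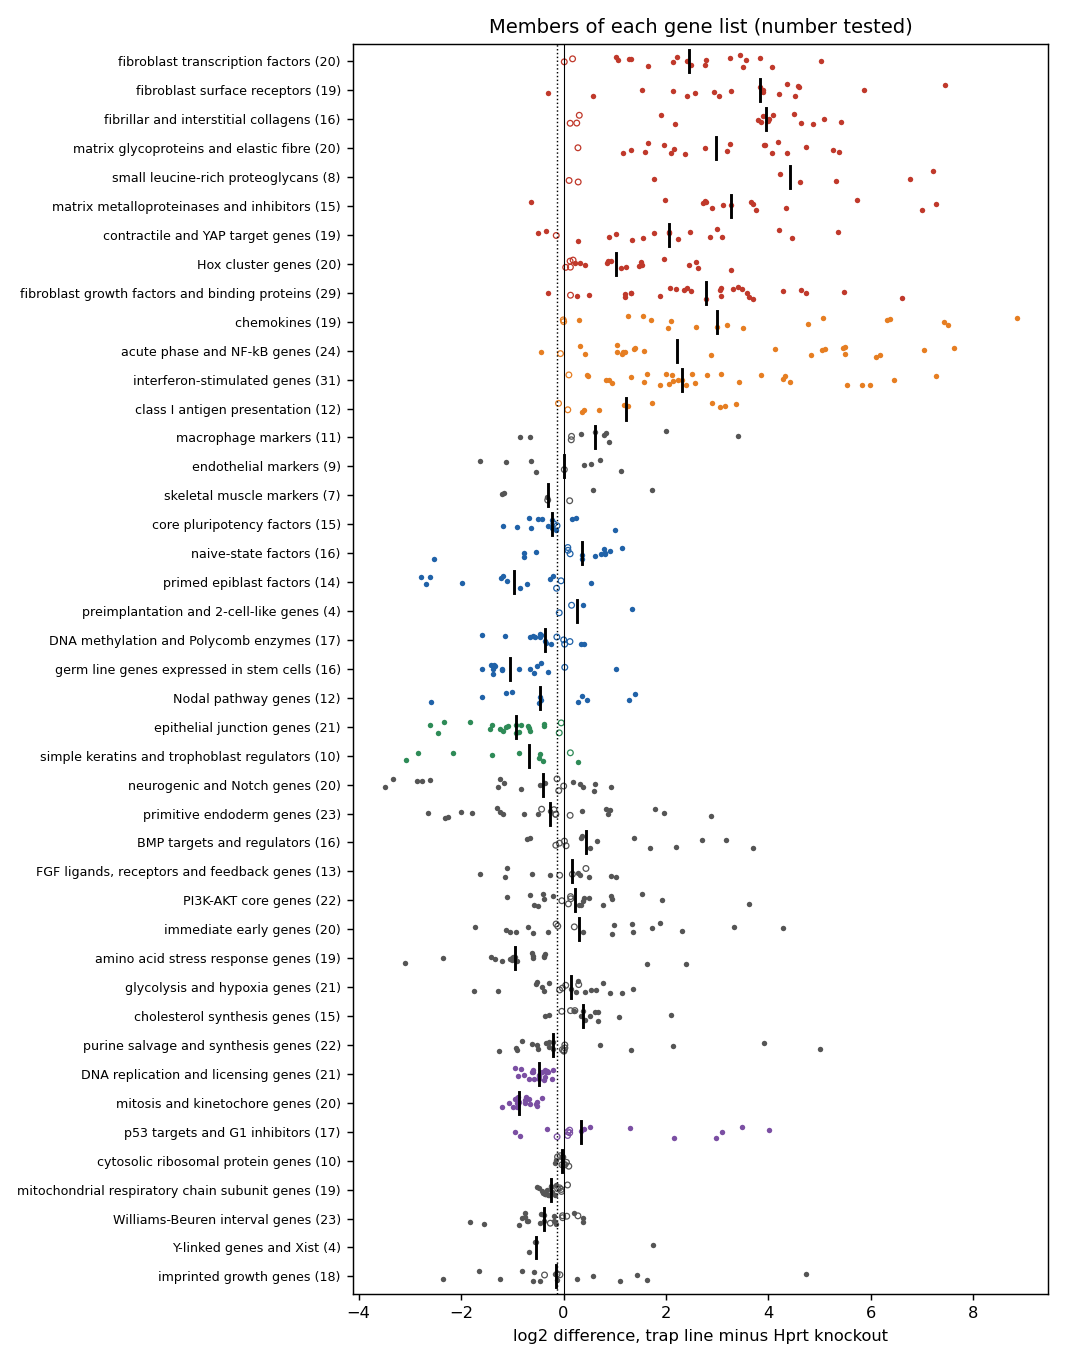
Each point is a tested member of a gene list, placed by its log2 difference, trap line minus Hprt knockout (x axis); filled points were called, open points were not, bars are list medians, and the dotted line is the median of all tested genes (-0.13). Fibroblast lists (red) and inflammatory lists (orange) lie to the right, and the epithelial (green), DNA replication and mitosis lists (purple) lie to the left; stem cell lists (blue) lie on both sides, and the p53 and G1 list (purple) reaches 4.02 on the right.

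Among mesenchymal transcription factors 18 of 20 tested members were called higher and 0 lower. Prrx1, a homeobox factor of limb and craniofacial mesenchyme, measured 5.92 and 5.93 in the Hprt knockout and 10.94 and 10.98 in the trap line. That is a difference of 5.03 ± 0.06 (adjusted p = 6.22e-09 by limma). Twist2, a basic helix-loop-helix factor of the same tissue, was higher by 4.07, and Nr2f1, an orphan nuclear receptor, by 3.84. Snai2, a repressor of epithelial genes, was higher by 3.56. Meox1, a somite homeobox gene, differed by 0.01 and was not called.

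Surface receptors followed, with 18 of 19 called higher. Agtr2, the type 2 angiotensin receptor, had the largest fitted difference, 7.45, from 3.91 and 3.90 in the Hprt knockout to 11.29 and 11.41 in the trap line; its knockout values were below the filter. Osmr, the oncostatin M receptor, was higher by 5.88, and Tgfbr2, the type II TGF-beta receptor, by 4.58. Osmr lay under the filter level on both Hprt knockout arrays. Eng, a co-receptor for TGF-beta, was the exception at -0.30 (adjusted p = 0.0187 by limma), a call lost under cyclic loess scaling (-0.13) and without trap replicate 2 (-0.21) or either Hprt knockout array.

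Matrix genes differed by large amounts. Of the fibrillar and interstitial collagens 13 of 16 were higher and 0 lower, with a relative median of 4.07. Col1a1, the main chain of type I collagen, averaged 6.48 on the Hprt knockout arrays and 10.99 on the trap arrays, against 12.18 and 12.22 in wild-type. Col6a3, a chain of microfibrillar collagen VI, was higher by 5.41 ± 0.06, and Col3a1 by 4.87. Col8a2, a collagen of the corneal Descemet membrane, differed by 0.13 and was below the filter level in both groups. Of the matrix glycoproteins 19 of 20 were higher, led by Thbs2 (5.38), an inhibitor of angiogenesis, and Postn (5.27), a matricellular protein. Small leucine-rich proteoglycans were called higher in 6 of 8, with Lum at 7.22 and Dcn at 6.78, both regulators of collagen fibril assembly. Of the metalloproteinases and their inhibitors 14 of 15 were higher, and here the stromelysin Mmp3 was at 7.02 and 6.94 in the Hprt knockout against 13.99 and 13.96. The collagenase Mmp13 was higher by 7.28, from values under the filter level in the Hprt knockout. Mmp11, a further stromelysin, was the exception, lower by -0.63 (adjusted p = 2.64e-05 by limma).

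The contractile and YAP target list was divided. S100a4, a calcium-binding protein of motile fibroblasts, was higher by 5.37, Cav1, the caveolar coat protein, by 4.45, and Tpm2, a tropomyosin, by 2.86. In all, 16 of 19 members were called higher. The exceptions were 3 genes known as YAP targets or partners, although Ankrd1 and Axl, YAP targets too, were called higher by 0.28 and 4.21. Ccn2 (CTGF) measured 11.08 and 10.97 in the Hprt knockout, 10.65 and 10.72 on the trap arrays, 11.57 and 11.63 in the exon 2 mutant and 14.40 on both wild-type arrays. Its difference between trap and Hprt knockout was -0.34 ± 0.06 (adjusted p = 0.00168 by limma). Ccn1 (CYR61) gave 9.54 and 9.46 in the Hprt knockout and 9.39 and 9.34 in the trap line, and was not called at -0.14, while wild-type lay at 12.73 and 12.68. Amotl2, a YAP-binding angiomotin, was lower by -0.49. These 3 genes were at their highest in wild-type, and so was the mean of the whole list, at 12.67 in wild-type, 11.42 to 11.44 in the trap line, 11.43 to 11.45 in the exon 2 mutant and 9.44 in the Hprt knockout.

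Hox cluster genes, which keep positional identity in fibroblasts, were called higher in 16 of 20 tested members and lower in 0. Hoxc8 was the largest at 3.28, from 4.32 and 4.79 in the Hprt knockout to 7.76 and 7.90 in the trap line. For 9 of the 20 both Hprt knockout arrays were below the filter, and Hoxc9 differed by 0.04. The relative median, 1.15, was the smallest among the 9 fibroblast lists. Secreted growth factors and their binding proteins were higher in 27 of 29. Fgf7, a stromal growth factor acting on epithelia, rose from 4.03 and 4.19 to 10.73 and 10.69. Grem1, a secreted BMP antagonist, was higher by 5.47, and Igf2, the imprinted fetal growth factor, by 4.74. Igfbp5 was called lower at -0.31 on its brightest probe set, whereas another probe set of the gene gave 4.65, so its direction is uncertain.

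**Figure D3:**
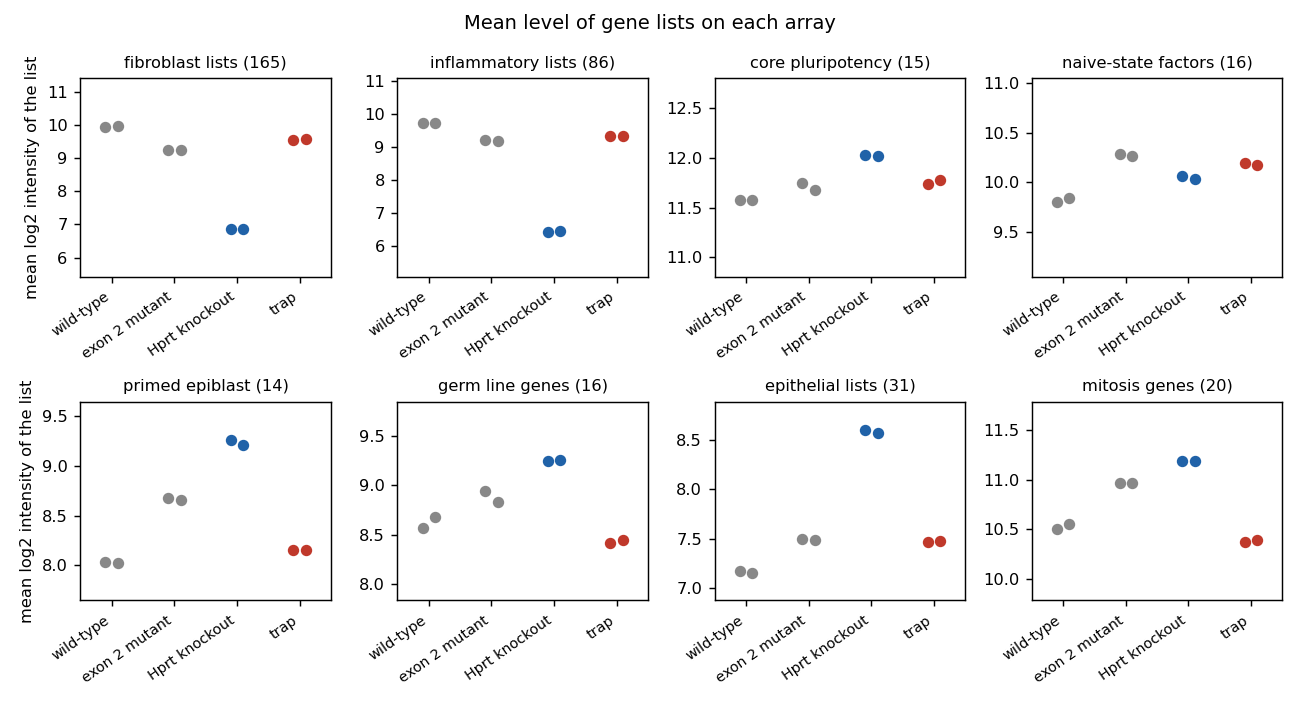
Mean log2 intensity of the tested members of 8 gene lists on each of the 8 arrays (y axis), by group (x axis), with trap arrays in red, Hprt knockout arrays in blue and the other groups in grey. The y axis spans 6 units in the fibroblast and inflammatory panels and 2 units in the others; the Hprt knockout is lowest in the first 2 panels and highest in the core pluripotency, primed epiblast, germ line, epithelial and mitosis panels.

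Inflammatory genes were the next upward block. Of 86 tested members of 4 lists 79 (91.9%) were called higher and 1 (1.16%) lower, beside 26.6% and 41.8% of all tested genes. Their median lay 2.40 above that of all tested genes, and the Hprt knockout was below the filter level for 22. The mean over these members was 6.42 to 6.48 in the Hprt knockout, 9.35 on both trap arrays, 9.73 to 9.74 in wild-type and 9.20 to 9.22 in the exon 2 mutant. This is the same order of groups as for the fibroblast lists.

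Promoter sequence was described for these lists, apart from the expression values. Lists named for interferon and NF-kB responses were likely beforehand to hold the matching promoter motifs. Tested members were counted whether called or not, so the shares do not bear on the difference between trap and Hprt knockout. Of the tested interferon-stimulated genes with a RefSeq promoter (GRCm38.p6, 250 bases before to 50 after the start), 13 of 22 (59.1%) held the core of the interferon-stimulated response element, GAAANNGAAA, on either strand. The share was 3.43% of 11083 tested genes and 3.99% of all 27025 genes in the table. The NF-kB consensus was matched in 5 of 11 chemokine promoters (45.5%) and 9 of 18 promoters of acute phase and NF-kB genes (50%), beside 12.5% of tested genes and 9.55% of all. In core pluripotency promoters the counts were 0 of 11 for the interferon element and 1 of 11 for NF-kB. The NF-kB consensus was also in 6 of 22 interferon-stimulated promoters (27.3%) and 3 of 10 class I promoters (30%). The interferon element was in 2 of 11 chemokine promoters (18.2%), 3 of 10 class I promoters (30%) and 1 of 18 acute phase promoters (5.56%). A match describes the letters in this window and does not show a bound site. The windows below show the spacing of the matches, in capitals, upstream of some of the genes with large differences (Gbp3, Cxcl2 and Il6 were picked for their matches after their values were seen). Each is written 5′ to 3′ on the strand of its gene.
Ifit1, chr19:34640750-34640829, + strand: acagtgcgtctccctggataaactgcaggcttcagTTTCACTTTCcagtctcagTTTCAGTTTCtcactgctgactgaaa
Ifit3, chr19:34583338-34583417, + strand: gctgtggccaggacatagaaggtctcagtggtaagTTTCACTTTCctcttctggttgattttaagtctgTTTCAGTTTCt
Gbp3, chr3:142559964-142560043, + strand: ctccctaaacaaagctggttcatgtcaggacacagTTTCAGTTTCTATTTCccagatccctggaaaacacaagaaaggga
B2m, chr2:122147513-122147592, + strand: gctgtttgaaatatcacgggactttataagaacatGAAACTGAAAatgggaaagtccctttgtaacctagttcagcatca
Cxcl1, chr5:90891139-90891218, + strand: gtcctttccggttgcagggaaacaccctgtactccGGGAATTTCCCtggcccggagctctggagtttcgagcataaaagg
Cxcl2, chr5:90903767-90903846, + strand: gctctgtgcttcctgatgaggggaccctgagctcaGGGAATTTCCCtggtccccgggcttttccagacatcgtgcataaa
Il6, chr5:30013035-30013114, + strand: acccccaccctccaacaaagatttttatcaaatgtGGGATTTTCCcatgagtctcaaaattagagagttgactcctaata
The interferon element occurs as a pair in Ifit1 and Ifit3 and as overlapping matches in Gbp3, with the complementary letters on the printed strand, and as a single match in B2m. Cxcl1 and Cxcl2 share the same NF-kB letters.

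Of 31 tested interferon-stimulated genes 30 (96.8%) were called higher and 0 lower, beside 26.6% and 41.8% of all tested genes. Their relative median was 2.45. Ifit1, an RNA-binding antiviral protein, was at 3.49 and 3.63 in the Hprt knockout and 10.90 and 10.79 in the trap line, a difference of 7.28 ± 0.07 (adjusted p = 4.61e-09 by limma). Usp18, which removes ISG15 from proteins, was higher by 6.46, and Rtp4, an interferon-induced chaperone-like protein, by 5.99. Ifit3 was higher by 5.54. Gbp3, a guanylate-binding GTPase, was higher by 4.32. Ifi27l2a differed by 0.10 and was not called.

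The class I presentation genes, 10 of 12 (83.3%) higher beside 26.6% of all tested genes, had a smaller relative median of 1.35. B2m, the invariant light chain, measured 10.32 and 10.30 in the Hprt knockout and 13.63 and 13.73 in the trap line. Psmb8, an immunoproteasome subunit, was higher by 3.16 and H2-K1, a class I heavy chain, by 2.90. Tap1, which imports peptides, differed by 0.08 and was not called. Heavy chain genes of the major histocompatibility complex are near-identical in sequence, so their probe sets may read more than a single gene.

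Chemokines were called higher in 17 of 19 (89.5%), beside 26.6% of all tested genes. Cxcl5, a neutrophil attractant, had the largest fitted difference of all tested genes, from 3.78 and 3.55 in the Hprt knockout to 12.51 and 12.52 in the trap line (8.86 ± 0.08, adjusted p = 4.61e-09 by limma). Both Hprt knockout values of Cxcl5 were below the filter level, so its size and rank depend on the array background; among genes above that level on all 4 arrays, Saa3 (7.64) and Ccl2 led. Ccl2, the monocyte attractant, was at 5.92 and 5.95 against 13.33 and 13.41, a difference of 7.43 with all 4 arrays above the filter level. Ccl8, a related attractant, stood at 12.64 and 12.61 in the trap line, 5.25 and 4.99 in the Hprt knockout and 10.36 and 10.39 in wild-type. Cxcl1, a further neutrophil attractant, was higher by 6.32, and Cxcl2 by 2.58. Ccl4, a macrophage product, differed by less than 0.01 and was not called.

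Acute phase and NF-kB genes were called higher in 22 of 24 (91.7%), beside 26.6% of all tested genes. Saa3, a serum amyloid made outside the liver, read 6.08 and 6.49 in the Hprt knockout and 13.93 and 13.92 in the trap line (7.64 ± 0.12, adjusted p = 1.6e-08 by limma). Steap4, a metalloreductase, was higher by 7.04, Vcam1, a leukocyte adhesion receptor, by 6.18 and Lcn2, a siderophore-binding protein, by 6.11. Il6 was higher by 5.45, with 3.60 and 3.22 in the Hprt knockout, 8.86 and 8.87 on the trap arrays and 11.52 and 11.56 in wild-type. Icam1, a further adhesion receptor, was the exception at -0.44 (adjusted p = 0.00107 by limma), and Socs3, a feedback inhibitor of LIF signalling, differed by -0.06 and was not called.

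Among the macrophage markers, 7 of 11 tested members (63.6%) were called higher and 2 (18.2%) lower, beside 26.6% and 41.8% of all tested genes. Lyz2, lysozyme, was higher by 3.40 and Cd14, a lipopolysaccharide co-receptor, by 2.00. Laptm5 was lower by -0.84 and Cd68 by -0.65. Both Ptprc, the pan-leukocyte phosphatase, and Tyrobp, a signalling adaptor of myeloid cells, stayed below the filter level as given above. Of 9 tested members of the endothelial list 4 (44.4%) were called higher and 4 (44.4%) lower. Of 7 in the skeletal muscle list 2 (28.6%) were higher and 3 (42.9%) lower.

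Stem cell genes differed far less and in both directions. Of 94 tested members of 7 lists 23 were called higher and 57 lower, with a median -0.26 relative to all tested genes, and 6 and 23 of them were at least 2-fold different. The shares called, 24.5% and 60.6%, stand beside 26.6% and 41.8% of all tested genes. The mean over these members was 10.05 to 10.07 in the Hprt knockout and 9.65 to 9.66 in the trap line, with wild-type at 9.52 to 9.55 and the exon 2 mutant at 9.87 to 9.91. The groups thus stood in the reverse of the order seen for the fibroblast lists.

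Core pluripotency factors were near their level in the Hprt knockout. Of 15 tested members 3 (20%) were called higher and 10 (66.7%) lower, beside 26.6% and 41.8% of all tested genes. Under cyclic loess scaling 3 were called higher and 7 lower. The relative median was -0.10, however, and 1 gene in each direction reached 2-fold. Pou5f1 (OCT4) measured 13.46 and 13.38 in the Hprt knockout and 13.03 and 12.99 in the trap line, lower by -0.41 ± 0.06 (adjusted p = 0.000584 by limma). Sox2, named here after its values were seen, differed by -0.19 and was not called (adjusted p = 0.0799 by limma). Nanog was at 12.35 and 12.26 against 12.44 and 12.50, a difference of 0.17 whose call was lost under 9 of 13 alternatives, among them centring, both replicate blocks and leaving out any of the 4 arrays. The largest differences were Fgf4, the autocrine ligand that readies ES cells for differentiation, at -1.18 and Foxd3, a forkhead factor, at 1.01. Lin28a, a repressor of let-7 maturation, was lower by -0.91 and Utf1, a chromatin factor, by -0.67.

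**Figure D4:**
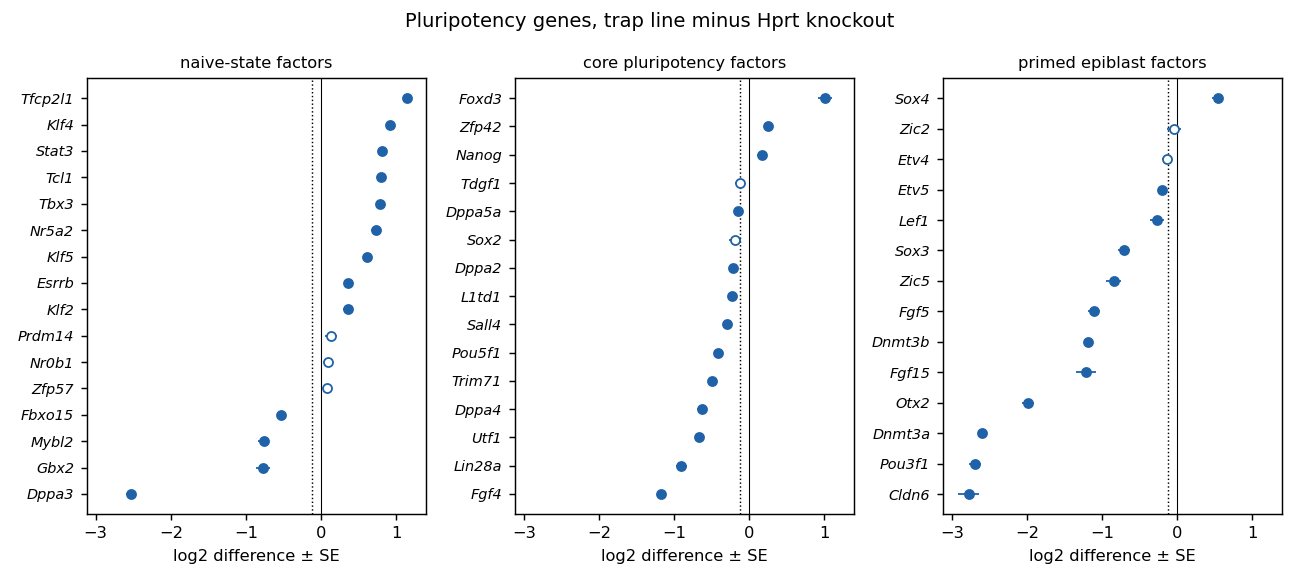
Log2 difference, trap line minus Hprt knockout, with its limma SE (x axis) for each tested gene of the naive-state, core pluripotency and primed epiblast lists, 2 arrays per group. Filled points were called, open points were not, and the dotted line is the median of all tested genes (-0.13); naive-state factors lie mostly right of 0 (9 called higher of 16), and primed epiblast factors mostly left (11 called lower of 14).

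Naive-state and primed factors went opposite ways. Of 16 naive-state factors 9 (56.2%) were called higher and 4 (25%) lower, with a relative median of 0.48. Of 14 primed epiblast factors 1 (7.14%) was higher and 11 (78.6%) lower, with a relative median of -0.85. The shares of all tested genes were 26.6% higher and 41.8% lower. Tfcp2l1, a LIF-responsive factor, measured 9.73 and 9.64 in the Hprt knockout, 10.83 on both trap arrays, 10.11 and 10.10 in wild-type and 10.34 and 10.38 in the exon 2 mutant. Its difference was 1.14 ± 0.05 (adjusted p = 1.94e-06 by limma). Klf4, a Kruppel-like reprogramming factor, was at 11.40 and 11.43 against 12.35 and 12.32, a difference of 0.92. Both genes were higher on the trap arrays than on the arrays of all other groups. Stat3, the transducer of LIF, was higher by 0.81, at 10.35 and 10.38 in the trap line against 10.38 and 10.43 in wild-type and 9.56 and 9.55 in the Hprt knockout. Tcl1, an AKT co-activator, was higher by 0.80, Tbx3, a T-box factor, by 0.78 and Nr5a2, a nuclear receptor that can drive Pou5f1, by 0.73. The naive-state list mean was 10.17 to 10.19 in the trap line and 10.03 to 10.06 in the Hprt knockout, between the exon 2 mutant (10.26 to 10.29) and wild-type (9.80 to 9.84).

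Dppa3 (Stella), a maternal factor that protects DNA methylation in the zygote, had the largest difference of the naive-state list and was lower. It measured 8.54 and 8.42 in the Hprt knockout and 5.97 and 5.92 in the trap line, a difference of -2.53 ± 0.06 (adjusted p = 9.79e-08 by limma). Wild-type lay at 7.20 and 7.24 and the exon 2 mutant at 8.10 and 8.01, so the trap arrays were the lowest of the 8 here. Gbx2, a LIF-responsive homeobox gene, and Mybl2, a cell cycle factor, were both lower by -0.77.

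Among the primed factors, Pou3f1 (OCT6), a POU factor of the epiblast, measured 10.45 and 10.41 in the Hprt knockout and 7.70 and 7.79 in the trap line (-2.69 ± 0.08, adjusted p = 2.6e-07 by limma). Cldn6, an epiblast tight junction protein, was lower by -2.78. Dnmt3a, a de novo methyltransferase, was at 11.85 and 11.75 in the Hprt knockout and 9.18 and 9.23 in the trap line, a difference of -2.60. Wild-type, at 9.06 and 9.13, lay beside the trap line. Otx2, the homeobox factor that opens the primed programme, was lower by -1.98, with means of 8.08 in the trap line and 10.06 in the Hprt knockout. Here the exon 2 mutant, at 10.47 and 10.54, lay with the Hprt knockout and wild-type, at 7.41 and 7.57, with the trap line. Dnmt3b was lower by -1.19 and Fgf15 by -1.21, and Sox4 was the exception, higher by 0.54. The list mean was 9.21 to 9.27 in the Hprt knockout, 8.15 in the trap line and 8.02 to 8.03 in wild-type.

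The DNA methylation and Polycomb list had 2 of 17 (11.8%) called higher and 11 (64.7%) lower, beside 26.6% and 41.8% of all tested genes. Its relative median was -0.23. Dnmt3l, the cofactor of the de novo enzymes, measured 11.82 and 11.87 in the Hprt knockout and 10.23 and 10.27 in the trap line (-1.59 ± 0.05, adjusted p = 3.11e-07 by limma), below wild-type at 11.37 and 11.33 and the exon 2 mutant at 11.28 and 11.31. Unlike Dnmt3a, then, it had its lowest level in the trap line. Phc1, a subunit of Polycomb complex PRC1, was lower by -1.15 and Ezh2, the methyltransferase of PRC2, by -0.66. Eed, the PRC2 subunit that reads its mark, was higher by 0.41.

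Of 16 germ line genes that ES cells express 14 (87.5%) were lower and 1 (6.25%) higher, beside 41.8% and 26.6% of all tested genes. Their relative median was -0.91. Mael, a factor of piRNA biogenesis, was at 9.84 and 9.75 in the Hprt knockout and 8.22 and 8.19 in the trap line, a difference of -1.58. Sycp3, a component of the synaptonemal complex, and Ddx4, a germ cell RNA helicase, were both lower by -1.38. Dazl, a germ cell RNA-binding protein, was the exception, higher by 1.02, from 10.35 and 10.25 to 11.28 and 11.36. Of the 4 tested genes of the preimplantation list 2 were called higher, and Pramel6, at 1.34, had the largest difference. It measured 9.37 and 9.33 in the trap line and 7.99 and 8.03 in the Hprt knockout.

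The Nodal pathway had called members in both directions. Among ligands, Nodal was at 11.65 and 11.61 in the Hprt knockout and 10.63 and 10.62 in the trap line, and Gdf3 was lower by -0.47. Lefty1, its secreted inhibitor, fell from 11.83 and 11.90 in the Hprt knockout to 9.27 and 9.28 in the trap line (-2.59 ± 0.05, adjusted p = 3.84e-08 by limma), while wild-type stood at 8.79 and 8.78. Lefty2 was called higher by 0.29. Of the signal transducers, Foxh1, the DNA-binding partner of SMADs, was lower by -1.58 and the receptor Acvr2b by -1.13, whereas Smad3 was higher by 1.27. Furin, which cleaves the Nodal precursor, was higher by 1.40. In all 5 of 12 tested members (41.7%) were called higher and 7 (58.3%) lower, beside 26.6% and 41.8% of all tested genes.

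Epithelial genes were lower nearly throughout. Of 31 tested members of 2 lists 27 (87.1%) were called lower and 1 (3.23%) higher, beside 41.8% and 26.6% of all tested genes. The relative median was -0.80. Their mean was 8.57 to 8.60 in the Hprt knockout, 7.46 to 7.48 in the trap line, 7.16 to 7.18 in wild-type and 7.48 to 7.50 in the exon 2 mutant. The Hprt knockout was therefore the group that stood apart here too.

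Junction genes were lower in 19 of 21 and higher in 0. Cldn7, a tight junction claudin, was at 8.93 and 8.89 in the Hprt knockout and 6.45 and 6.48 in the trap line, a difference of -2.44. Prss8, a membrane serine protease, was lower by -2.61, to a level below the filter in the trap line, and Dsp, which links desmosomes to keratin, by -1.39. Cdh1 (E-cadherin) and Epcam, added after their values were seen, were lower by -0.93 and -1.12. Among simple keratins, Krt18 measured 9.27 and 9.30 in the Hprt knockout and 6.12 and 6.31 in the trap line (-3.08 ± 0.09, adjusted p = 2e-07 by limma). Krt8, its partner in the same filament, was lower by -2.83. Tfap2c, a factor of trophoblast and germ cells, was lower by -2.17, and Tead4, a trophoblast regulator, was the exception at 0.29, a call lost under 7 of 13 alternatives, with 0.14 without trap replicate 2.

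Differentiation genes were divided within lists. Of 20 neurogenic and Notch genes 6 (30%) were called higher and 11 (55%) lower, beside 26.6% and 41.8% of all tested genes. Dll1, a Notch ligand, had the largest downward difference of all tested genes, from 10.57 and 10.54 in the Hprt knockout to 7.07 on both trap arrays (-3.49 ± 0.16, adjusted p = 2.11e-06 by limma). Insm1, a zinc finger factor of neuroendocrine progenitors, was lower by -3.34 (to values under the filter level), Neurod1, a neurogenic factor, by -2.86, Dll3, a Notch inhibitor, by -2.76 and Hes6 by -2.61. Neurofilament Nefl went the other way, at 0.93. Wild-type lay below the trap line for Neurod1, at 5.78 and 5.66 against 8.12 and 8.17, and the Hprt knockout, at 11.01 on its higher array, above both.

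In the primitive endoderm list 7 of 23 tested genes (30.4%) were called higher and 11 (47.8%) lower, shares near the 26.6% and 41.8% of all tested genes. The lower genes were led by the endocytic receptors Cubn (-2.64) and Lrp2 (-2.26) and their partner Amn (-1.79). The largest upward differences were those of the basement membrane proteins Nid1 (nidogen) at 2.88, Sparc at 1.95 and Col4a2, a collagen IV chain, at 1.78. Pth1r, the parathyroid hormone receptor of parietal endoderm, was lower by -1.30.

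Signalling lists gave more higher than lower members for BMP and PI3K-AKT. Of 16 BMP targets and regulators 10 (62.5%) were higher and 2 (12.5%) lower, beside 26.6% and 41.8% of all tested genes. The relative median was 0.56. Bmp2 measured 5.82 and 5.63 in the Hprt knockout and 9.32 and 9.51 in the trap line (3.70 ± 0.12, adjusted p = 3.02e-07 by limma). Its other groups lay at 6.59 and 6.60 (wild-type) and 6.99 and 6.71 (exon 2 mutant), so the trap arrays were the highest of the 8. Id3, a BMP target that blocks differentiation factors, was higher by 3.18, Bmp4 by 2.20 and Id1 by 1.39, but for these 3 wild-type lay as high as the trap line or higher. Bmp7 was lower by -0.72. Of 22 PI3K-AKT genes 11 (50%) were higher and 7 (31.8%) lower, beside 26.6% and 41.8% of all tested genes. Irs1, the insulin receptor substrate, gave 6.78 on both Hprt knockout arrays and 10.41 on both trap arrays (3.62 ± 0.05), and the exon 2 mutant, at 10.36 and 10.40, was level with the trap line. Pik3r1, a regulatory subunit, was higher by 1.93 and the kinase Akt1 by 1.53. Inpp5d, a lipid phosphatase that opposes the pathway, was lower by -1.10.

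The FGF list had 5 of 13 tested members called higher and 5 lower (38.5% each), beside 26.6% and 41.8% of all tested genes. Receptors were not alike: Fgfr1 was higher by 1.03, while Fgfr2 was lower by -1.10 and Fgfr4 by -1.14. Of 20 immediate early genes 10 (50%) were higher and 7 (35%) lower. Fosl2, an AP-1 subunit, was higher by 4.29 and Ier3 by 3.32, and the stress factor Atf3 was lower by -1.74.

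Genes of the amino acid stress response, driven by ATF4 when amino acids or tRNA charging run short, were lower in 17 of 19 tested members and higher in 2, with a relative median of -0.82. Chac1, which degrades glutathione, measured 10.47 and 10.45 in the Hprt knockout and 7.40 and 7.34 in the trap line (-3.09 ± 0.08, adjusted p = 1.36e-07 by limma). Wild-type was at 7.18 and 7.42 and the exon 2 mutant at a mean of 10.98, so the groups fell into a high and a low pair. Trib3, a pseudokinase in the same response, showed the same pairing, with 10.21 and 10.16 in the Hprt knockout and 10.33 and 10.13 in the exon 2 mutant, against 7.83 and 7.81 in the trap line and 7.48 and 7.47 in wild-type. Mthfd2, of mitochondrial folate metabolism, was lower by -1.42 and the serine synthesis enzyme Psph by -1.34. Atf4 itself, named after its values were seen, was lower by -0.94. The exceptions were Nupr1, a stress-induced chromatin protein, at 2.39 and the bZIP factor Cebpb at 1.62. The fibroblast marker means for the same groups were 6.93 to 6.96 (Hprt knockout), 11.08 to 11.09 (exon 2 mutant), 11.37 to 11.39 (trap) and 11.47 to 11.50 (wild-type), and their part in this list was not tested.

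In central metabolism, 10 of 15 cholesterol synthesis genes (66.7%) were called higher and 2 (13.3%) lower, beside 26.6% and 41.8% of all tested genes. Their relative median was 0.52. Hsd17b7, a reductase of the late pathway, measured 7.77 and 7.88 in the Hprt knockout and 9.94 and 9.91 in the trap line, a difference of 2.10, and the sterol desaturase Sc5d was higher by 1.08. Glycolysis and hypoxia genes were called higher in 10 of 21 (47.6%) and lower in 7 (33.3%), beside 26.6% and 41.8% of all tested genes. Among them Ddit4, an mTOR inhibitor, was at -1.76, the glucose transporter Slc2a1 at -1.27 and Ndrg1 at 1.35. Respiratory chain subunits were called lower in 14 of 19 (73.7%) and higher in 0, beside 41.8% and 26.6% of all tested genes. All 14 differed by less than 2-fold, and the relative median was -0.12. Under cyclic loess scaling 8 of the 19 were called lower and 1 higher. Of 10 ribosomal protein genes 2 (20%) were called lower and 0 higher, both below the shares of all tested genes. Under cyclic loess scaling 0 were lower and 2 higher.

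Purine genes bear on the Hprt lesion that both labels share. Of 22 tested members 5 were called higher and 12 lower, beside 26.6% and 41.8% of all tested genes, a split that became 7 and 7 under cyclic loess scaling. The largest downward differences were those of 3 enzymes of de novo synthesis, Gart at -1.27 (11.86 and 11.84 in the Hprt knockout against 10.60 and 10.56), Pfas at -0.93 and Adsl at -0.91. Gda, guanine deaminase, was higher by 5.01 and Xdh, xanthine dehydrogenase, by 3.92, with both Hprt knockout arrays under the filter level. Wild-type and the exon 2 mutant also exceeded the Hprt knockout for both, for Gda at 9.18 and 9.17 and at 8.35 and 8.29.

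Cell cycle genes were lower without exception in both lists of the replication and division machinery. All 21 tested DNA replication genes were called lower, beside 41.8% of all tested genes, with a relative median of -0.34, and none reached 2-fold. Of these Cdc6, which loads the replicative helicase, had the largest difference at -0.94 and Pcna, the polymerase clamp, the smallest at -0.20, and under cyclic loess scaling 18 of the 21 were called lower. All 20 tested mitosis genes were lower, with a relative median of -0.75. Aurka, the centrosomal Aurora kinase, measured 11.24 and 11.18 in the Hprt knockout and 9.99 and 10.03 in the trap line (-1.20 ± 0.06, adjusted p = 2.36e-06 by limma). Wild-type lay at 10.73 and 10.74 and the exon 2 mutant at 10.88 and 10.99. The mean of the mitosis list was 10.37 to 10.39 in the trap line, 10.51 to 10.55 in wild-type, 10.96 to 10.97 in the exon 2 mutant and 11.19 in the Hprt knockout, so the trap arrays were the lowest of the 8.

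The p53 and G1 list went the other way. Of its 17 tested members 9 (52.9%) were called higher and 3 (17.6%) lower, beside 26.6% and 41.8% of all tested genes. With the mean of probe sets 6 were called higher and 2 lower, and the relative median was 0.25 instead of 0.46. Ccnd2, a D-type cyclin, was at 8.91 and 9.01 in the Hprt knockout and a mean of 12.98 in the trap line, a difference of 4.02 ± 0.06. Cdkn2a, which encodes p16 and ARF, was at 6.80 and 6.73 against 10.33 and 10.16, a difference of 3.48, and stood above wild-type at 9.31 and 9.66. Cdkn2b was higher by 3.09 and the p53 target Cdkn1a (p21) by 1.30. Bbc3 (PUMA), a pro-apoptotic p53 target, was lower by -0.95 and Cdkn1b (p27) by -0.84. The higher genes of this list were low in the Hprt knockout together with the fibroblast markers, and the part of the latter was not tested.

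Genes around Gtf2i were described from the Williams-Beuren interval, deleted in that syndrome. Of 23 tested members 3 (13%) were called higher and 15 (65.2%) lower, beside 26.6% and 41.8% of all tested genes. Their relative median was -0.26. Under cyclic loess scaling the split became 5 higher and 11 lower. The largest differences were those of Cldn4, a claudin also counted among the junction genes, at -1.82 and of Mlxipl, a glucose-responsive factor, at -1.55, below the filter level in the trap line. Tbl2 was lower by -0.88, followed by Gtf2i itself. Limk1, a kinase of the actin cytoskeleton, was higher by 0.38, but the mean of its probe sets gave 0.11 with no call, and the call was also lost without trap replicate 1 (0.26) or Hprt knockout replicate 1 (0.35). Among imprinted growth genes 6 of 18 (33.3%) were called higher and 9 (50%) lower, beside 26.6% and 41.8% of all tested genes. That split became 6 and 6 under cyclic loess scaling. Igf2 was at 4.74 and Igf2r at 1.64, against Nnat at -2.35 and Peg10 at -1.64.

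Xist, the RNA that coats the inactive X chromosome, was higher by 1.75, from 8.82 and 8.89 in the Hprt knockout to 10.57 and 10.64 in the trap line, and wild-type was higher still at 11.91 and 11.82. The Y-linked genes Uty, Kdm5d and Eif2s3y were lower by -0.67, -0.56 and -0.53, where the call of Uty was lost without trap replicate 1 (-0.42) or Hprt knockout replicate 1 (-0.59). All 8 arrays thus carried signal both for Xist and for Y-linked Eif2s3y, which lay between 10.04 and 10.86. Medians by chromosome lay between -0.19 and -0.07 on the autosomes and X, and at -0.56 on Y, which had 7 tested genes.

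Genes in none of the lists were described apart. Ifi202b, an interferon-inducible gene, was higher by 6.94, Cp (ceruloplasmin), a copper-carrying ferroxidase, by 6.73, Mcpt8, a basophil protease, by 6.44, Tm4sf1, a tetraspanin-like membrane protein, by 6.10, and Cdh11, a mesenchymal cadherin, by 5.52. Mcpt8 measured 11.49 and 11.46 in the trap line, 10.16 and 10.18 in wild-type, 10.62 and 10.55 in the exon 2 mutant and 5.21 and 4.87 in the Hprt knockout. Car4, a carbonic anhydrase, was lower by -2.94, Frem2, a basement membrane protein, by -2.92, Ccno, a cyclin of multiciliated cells, by -2.83, Usp44, a deubiquitinase, by -2.70 and Dmc1, the meiotic recombinase, by -2.65. Frem2, Usp44 and Dmc1 were under the filter level on both trap arrays. Dmc1 was at 7.85 on both Hprt knockout arrays, 5.24 and 5.15 in the trap line, 5.22 and 5.20 in wild-type and 6.83 and 6.76 in the exon 2 mutant. As with the germ line list, the trap line lay near or below wild-type and below the exon 2 mutant. Of the 1420 genes at least 2-fold higher 203 belonged to a fibroblast or inflammatory list, and of the 684 at least 2-fold lower 37 belonged to a stem cell or epithelial list.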

How the data were processed

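Log2 intensities of 45101 probe sets on 8 Affymetrix mouse arrays were deposited by the authors, made with RMA per the submitters' processing notes; no version is named in the sources used here. RMA gives all arrays nearly the same distribution, so a shift of total RNA is not visible and differences of dim genes are compressed. The platform annotation gave gene symbols: leaving out 64 controls, 34945 had 1 symbol, 932 several and 9160 none. Each of 18193 genes was read from its brightest probe set by the mean of all 8 arrays. The 13819 genes above the 40th percentile of an array on at least 2 of 8 arrays were tested.

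A model of 4 group means on all 8 arrays was fitted with limma 3.58.1 in R 4.3.3 (lmFit, eBayes; 4 residual degrees of freedom, 6.86 after moderation), two-sided, with Benjamini-Hochberg adjustment over all tested genes and a threshold of 0.05. The smallest p of an exact permutation test between 2 and 2 arrays is 0.333. The script was tested on simulated data. The number of arrays limits the precision.

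The 43 gene lists, their members and the comparison were chosen with earlier results of these data known, so counts over lists are descriptions and were not tested as sets. The named genes were Gtf2i, Hprt and the 20 largest differences each way. To these came the 10 largest each way among genes above the filter level on all 4 arrays. Each list added up to 6 called members with the largest difference in each direction and the member nearest 0. Clone and predicted names were left out. The text gives only part of the named genes, and Ccl7, Timp2, Il33 and Fgd5 are among those not described. Other genes in the text are said to be named after their values were seen, or are cell type markers. Promoter motifs were searched on both strands of RefSeq sequences (GRCm38.p6), the NF-kB motif by its consensus. Same-numbered arrays are not said to share a culture, so the fit has no block. Alternatives were other scalings, filters, probe set choices, arrays in the fit, variance moderation, blocks and leaving out each of the 4 arrays.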

Additional observations from a re-analysis of the deposited data

How the results depend on the processing

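The counts of calls, with and without the 2-fold limit, and the list medians were recomputed under 13 alternatives; the 4-fold, 16-fold, below-filter and promoter counts were not. Here no list median relative to all tested genes changed sign. Cyclic loess scaling lowered the genes at least 2-fold lower from 684 to 450. The relative median of the fibroblast lists, 2.85, was 2.67 with no filter, 3.01 with a 60th percentile filter, 2.23 with the mean of all probe sets, and 2.78 to 2.85 without each array in turn. That of the stem cell lists, -0.26, was -0.27 to -0.23 without each array in turn. With the mean of probe sets, Egr3 went to 1.39, Igfbp5 to 2.17 and Sgce to -0.15, and with cyclic loess scaling Lss went to 0.15; the cause was not tested. Of 379 named genes, 28 lost their call under at least 1 alternative with the sign kept, and Sgce lost its call with the sign reversed. Genes left untested under an alternative were not counted there. Other probe sets of Plagl1 (-0.32) and Smad2 (0.27) opposed the brightest one.

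A replicate block on the array numbers gave 3556 genes higher and 5571 lower. The numbers share no stated culture and the deviations of same-numbered arrays correlated at -0.125; the crossed pairing, added after the data were seen, gave 3585 and 5626. Without the genes of the fibroblast and inflammatory lists, also added afterwards, 3450 genes were higher and 5768 lower. With 2 arrays per group, small differences near the filter level are the least certain.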
